A study of Mus musculus with 3 samples.

Results

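The variable (V) and joining (J) gene segments of the T cell receptor alpha chain were measured in regulatory T cells of mouse. The set holds every gene whose symbol starts with Trav or Traj, which is 188 of the 55536 mouse genes in the deposited gene tables: 128 Trav genes, of which 108 are annotated as functional V genes and 20 as pseudogenes, and 60 Traj genes, of which 51 are annotated as J genes and 9 as pseudogenes. All lie on the + strand of chromosome 14 of mouse genome build mm10, the Trav genes between 52427928 and 53977678, the Traj genes between 54155005 and 54218842, and the constant gene Trac just behind them at 54220521 to 54224206. Polyadenylated RNA of regulatory T cells, from an adult male mouse aged 4 months with the genotype Foxp3CreERT2 x Rosa26YFP, was sequenced in 3 libraries. The labels name them technical replicates 1, 2 and 3 and assign all of them to biological replicate 1. The source label places the origin of the cells in a hematopoietic cell of the bone marrow. The libraries form 1 group with no control, so each comparison here is between libraries labelled as the same biological replicate. Foxp3 encodes the transcription factor that defines regulatory T cells, and an allele of this kind places a tamoxifen-inducible Cre recombinase under Foxp3 control, with a fluorescent reporter in the Rosa26 locus. The sources used here do not say how the cells were sorted, or whether the libraries share a pool of RNA, a sort or an animal.

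A T cell builds its alpha chain gene during development in the thymus by cutting the DNA and joining a Trav segment to a Traj segment, and the joined exon is then spliced to Trac. The V segment encodes the part of the chain with the first and second antigen-contact loops, and the V to J junction encodes the most variable loop, which starts after a conserved cysteine near the end of the V segment and ends before a phenylalanine-glycine motif in the J segment. Developing cells can rearrange the same allele again, joining V segments farther from Trac to J segments closer to it. The Trav region of this genome was partly duplicated during evolution, which left near-identical copies marked d and n beside the gene without a letter, and genes with dv in their name can also be joined into delta chains. Regulatory T cells as a population carry many different alpha chains, unlike natural killer T (NKT) cells and mucosal-associated invariant T (MAIT) cells, each of which shares a nearly fixed V to J pair.

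The gene tables held 9299054, 9188612 and 8284381 counts in libraries 1, 2 and 3. The regulatory T cell markers were present in every library: Foxp3 stood at 27.6, 43.7 and 47.1 TPM (a level scaled by transcript length and library), and all 5 markers of the list, with Il2ra, Ikzf2, Ctla4 and Izumo1r, were at 1 TPM or more. RNA of other cells was also present, and the libraries differed in it: the summed level of 5 erythroid genes, hemoglobins among them, was 1681, 9.02 and 1495 TPM, and that of 5 B cell markers 148.8, 116.2 and 192.2 TPM. Of the plasma cell genes, Jchain stood at 98.5, 4.42 and 79.7 TPM and Igha at 36.4, 1.35 and 98.5 TPM, both low in library 2, whereas Xbp1 stood at 8.20, 30.7 and 26.02 TPM. The CD8 T cell markers Cd8a and Cd8b1 stood at 3.85, 1.28 and 4.04 TPM and at 13.35, 14.69 and 17.37 TPM. The part of other T cells in the Trav and Traj counts was not tested. Over all genes with 30 counts or more, 7122 of 13071, or 54.5%, differed between the libraries (chi-square test of homogeneity, Benjamini-Hochberg adjusted p under 0.05), so the 3 libraries are not repeats within counting error. Without library 1 this share was 17.2%, without library 2 it was 49.3%, and without library 3 it was 46.5%.

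Trav RNA was found in every library and came from a broad set of V genes. Expected counts assigned to the 128 Trav genes summed to 3248, 2652 and 2265 in libraries 1, 2 and 3. These are 0.0349%, 0.0289% and 0.0273% of the gene total (mean 0.0304% ± 0.00402, SD, n = 3 libraries). The bounds of the 95% Wilson interval were 0.0337% and 0.0362% in library 1, 0.0278% and 0.0300% in library 2, and 0.0262% and 0.0285% in library 3. Library 1 was highest, and its interval did not overlap those of the other two. In a bulk sample, fewer cells of a type and less RNA per cell cannot be told apart.

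Trac, the constant part of every alpha chain, was likewise highest in library 1, at 3154, 2844 and 2579 TPM. The summed Trav level was 1995, 1849 and 1853 TPM, which is 0.632, 0.650 and 0.718 of the Trac level. In these TPM values the V genes as a set stood below the constant gene in all 3 libraries, and the ratio was lowest in library 1. A second deposited quantification, described below, gave the Trav genes 2.13, 2.11 and 2.16 times as many counts. For all genes it gave 1.39, 1.35 and 1.36 times as many, so the Trav level depends on how reads were assigned.

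At 1 TPM or more in every library, 94 of the 128 Trav genes were detected, against 12183 of all 55536 genes. The detected Trav genes comprised 91 of the 108 functional genes and 3 of the 20 pseudogenes. Their mean levels ran from 3.18 to 80.1 TPM with a median of 14.9 TPM. Of the 128 genes, 15 had no expected count in any library, and only 3 of those are annotated as functional: Trav12d-3, Trav7n-6 and Trav11. None of these 3 can be read as silent, because each belongs to a subgroup in which another copy received counts.

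The pseudogenes together took 0.627%, 0.868% and 0.879% of the Trav counts. Only 3 of them reached 10 counts over the libraries. Trav9n-1 had 6.56, 4.29 and 5.86 expected counts, Trav8-2 had 3.83, 4.17 and 8.41, and Trav13-3 had 3.85, 7.48 and 3.63. Each of these pseudogenes belongs to a group with functional copies, so its counts are uncertain.

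The Trav genes fall into 23 families by number, and into 57 subgroups when the plain, d and n copies of a gene are pooled, 40 of which hold more than 1 gene. The family order was led by Trav14, which took 16.4%, 17.9% and 18.0% of the Trav counts in libraries 1, 2 and 3 (mean 17.4% ± 0.871, SD, n = 3 libraries). Trav7 followed with 15.4%, 17.9% and 16.1% (mean 16.5% ± 1.27). The spread of these families overlapped, so their order is not settled: Trav14 was above Trav7 in libraries 1 and 3, and Trav7 was above Trav14 in library 2 by a margin well inside the counting error.

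Trav12 had 11.0%, 10.9% and 11.0% of the Trav counts, the most even of the high families (mean 11.0% ± 0.0442). Trav9 had 8.87%, 9.77% and 8.79% (mean 9.14% ± 0.545), and Trav6, the family with the most genes at 15, had 10.04%, 7.96% and 9.18% (mean 9.06% ± 1.05). Trav9 and Trav6 did not differ beyond their spread. The 5 families together held 61.8%, 64.4% and 63.1% of all Trav counts (mean 63.1% ± 1.32). Their order and evenness depend on the quantification. By estimated counts of the second one, Trav6 had 10.54%, 10.21% and 10.48%, above Trav12 with 9.86%, 10.12% and 10.30%. Trav12 was then not the most even, with an SD of 0.221 beside 0.210 for Trav7 and 0.176 for Trav6.

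Trav4 stood at 8.87%, 7.01% and 6.18% (mean 7.35% ± 1.37), highest in library 1. Trav3 had 7.17%, 6.45% and 7.51% (mean 7.04% ± 0.541), and Trav13 had 5.41%, 5.55% and 5.64% (mean 5.53% ± 0.117). Trav4 and Trav3 overlapped across the libraries, while Trav13 lay below Trav3 in each. The other 15 families each held less than 4% of the Trav counts in every library.

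At the low end, Trav20, an annotated pseudogene, had 1, 2 and 0 counts, Trav22, also a pseudogene, had 0, 1 and 1, and Trav18, a functional gene, had 0, 2 and 0. These are the 3 lowest families with any count. Trav22 overlaps a gene on the other strand, and its counts are uncertain. Subgroups with no expected count numbered 5 (Trav12-4, Trav15-3, Trav5-3, Trav3-2 and Trav4-1), which hold no functional gene, and a count of 0 over 8165 Trav counts allows a share of up to 0.0367%. The second quantification gave Trav15-3 and Trav5-3 2 counts each in library 3 and Trav4-1 1.02 in library 2. The Trav15-3 genes are 155, 167 and 168 bases long, where functional Trav genes have a median of 360.5, so a 0 says less about them. These intervals and limits cover counting error only.

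**Figure D1:**
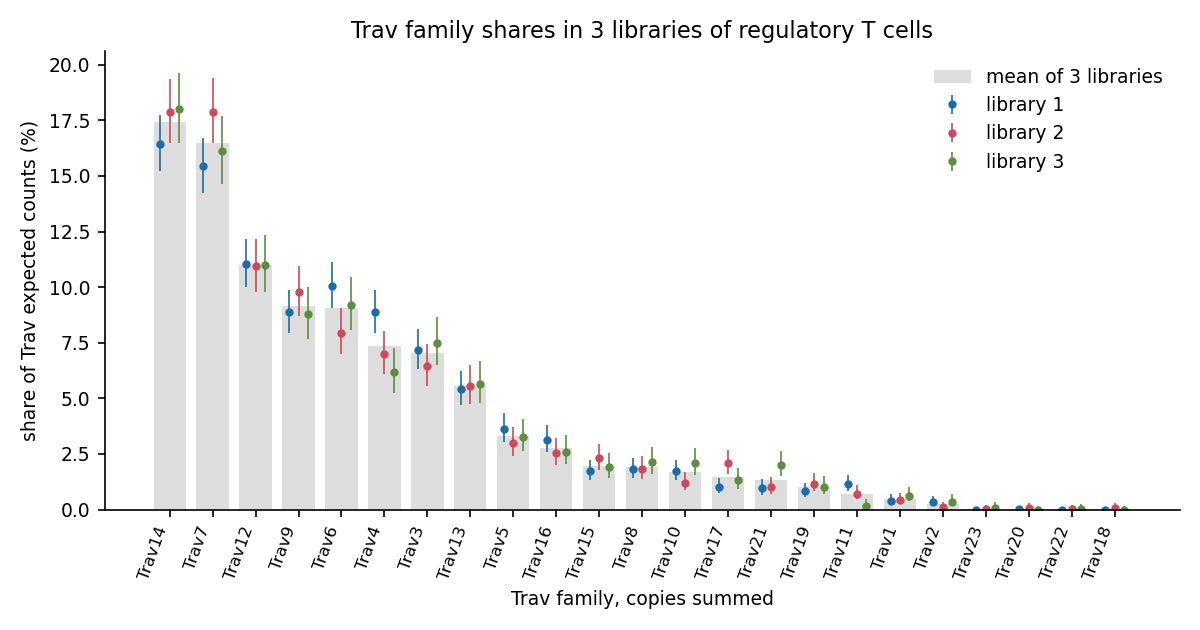
Share of the Trav expected counts in each of the 23 Trav families (copies summed), in percent, for libraries 1, 2 and 3 (points with 95% Wilson intervals) over the mean of the 3 libraries (bars). Trav14 (17.4%) and Trav7 (16.5%) lead, 8 families lie above 5%, and Trav11 has its lowest point, 0.177%, in library 3.

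With copies summed, the subgroup Trav7-4 was first with 247.0, 268.0 and 183.0 expected counts, a mean of 8.60% ± 1.33 of the Trav counts. Trav14-3 had 244.3, 177.5 and 177.2 counts (7.35% ± 0.585), and Trav3-3 had 219.0, 149.0 and 155.6 (6.41% ± 0.688). Trav14-1 followed with 156.9, 169.9 and 126.5 counts (5.61% ± 0.788), and Trav4-4 with 199.7, 135.0 and 99.3 (5.21% ± 0.888). Neighbours in this order overlapped across the libraries. The 5 highest subgroups held 32.8%, 33.9% and 32.7% of the Trav counts, and the 10 highest held 52.8%, 53.9% and 54.0%.

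The 3 leading subgroups show how a V segment ends. The last 45 bases of the gene without a letter are printed from the GENCODE M21 transcripts of build mm10, + strand, with the last cysteine codon of the reading frame in capitals, the residue after which the junction loop begins.
Trav7-4, chr14:53461694-53461738: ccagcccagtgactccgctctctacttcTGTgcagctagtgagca
Trav14-3, chr14:53763650-53763694: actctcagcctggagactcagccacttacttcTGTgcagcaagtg
Trav3-3, chr14:53666462-53666506: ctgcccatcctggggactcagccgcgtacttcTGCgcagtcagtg
After the cysteine codon each of these segments keeps only a few bases, which are trimmed and joined to a J segment in a rearranged gene.

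Among single genes, Trav7-4 had the highest mean, with 175.8, 172.5 and 119.2 expected counts (80.1 ± 10.6 TPM, SD, n = 3 libraries). Trav9-1 came next with 91.0, 67.8 and 71.8 counts (49.1 ± 4.19 TPM), and Trav3-3 with 96.2, 65.2 and 66.2 (61.5 ± 12.6 TPM). Trav12n-3 had 86.0, 69.8 and 63.2 counts (58.2 ± 1.28 TPM), while its copy Trav12d-3 was listed at 0 in all 3 libraries. Trav7-4 stood above the next gene in every library.

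Trav14-2 had 91.8, 67.0 and 58.2 expected counts (52.6 ± 6.18 TPM), and Trav14-3 had 82.8, 60.04 and 64.2 (46.9 ± 4.39 TPM). Trav4-4-dv10 had 95.4, 66.2 and 40.2 counts (50.1 ± 14.2 TPM), with library 1 highest and library 3 lowest. Trav14d-3-dv8 had 68.5, 61.8 and 68.6 counts (34.0 ± 5.00 TPM). The 2 genes with dv in their name in this group belong to those that can also serve delta chains, and Trdc, the delta constant gene, stood at 1.44, 3.71 and 3.66 TPM, far below Trac.

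Trav14n-3 had 93.0, 55.7 and 44.4 expected counts (48.0 ± 12.1 TPM), and Trav7d-4 had 56.0, 83.6 and 47.8 (32.5 ± 10.3 TPM). Trav7-2 had 0, 86 and 87 counts and Trav12-3 had 64.1, 62.5 and 40.8 (29.6 ± 4.68 TPM). The 0 of Trav7-2 in library 1 stands beside the counts of its copy Trav7d-2.

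Trav7-2 (ENSMUSG00000096417.2) and Trav7d-2 (ENSMUSG00000105533.1) are near-identical V genes: the annotated transcript of Trav7-2 has 336 bases, that of Trav7d-2 has 337, and the first 336 are the same. Their ends, and those of the Trav11 and Trav6-3 copies, are shown because these bases are all that distinguishes them over the stretch compared; capitals mark a base that is extra in that copy or differs from its partner (GENCODE M21, mm10, + strand).
Trav7-2, chr14:53391113-53391142: gactctgctctctacctctgtgcagcaagc
Trav7d-2, chr14:52684442-52684472: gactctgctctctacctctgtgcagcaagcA
Trav11d, chr14:52824883-52824912: gacactgccacctacatctgtgtggtgggc
Trav11, chr14:53519829-53519859: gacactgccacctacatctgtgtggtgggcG
Trav6-3, chr14:53430348-53430377: ttcggctgtgtactactgtgctatgagAga
Trav6d-3, chr14:52726890-52726919: ttcggctgtgtactactgtgctatgagTga
Trav11 likewise has 343 bases against 342 in Trav11d, with no other difference, and the last 347 bases of Trav6-3 and Trav6d-3 differ at 1 position.

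The deposited counts put most of the signal of such a pair on a single copy in most libraries, and not always on the same copy. Trav7d-2 had 89, 0 and 0 expected counts and Trav7-2 had 0, 86 and 87, so the pair swapped places between library 1 and the others. Their sum was 89, 86 and 87. The deposited posterior standard deviation of the count, the quantifier's own error, was 23.8, 25.7 and 23.5 counts for each gene of the pair. The second deposited quantification, for which a transcript index replaced the alignment, gave all of the pair's counts to Trav7d-2 in every library, 219.4, 205.0 and 179.9.

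Trav6-3 had 30, 0 and 7.17 expected counts and Trav6d-3 had 0, 17 and 4.83. Here the sum, 30, 17 and 12, was itself uneven. In the second quantification Trav6-3 held 62, 27.2 and 50 counts and Trav6d-3 held 0, 22.6 and 0. Trav11d had 31.9, 17 and 3 expected counts and Trav11 none, whereas the second quantification gave Trav11 72.2, 33.5 and 23.7 counts and Trav11d none. A value of 0 for any of these genes therefore says nothing about its RNA, and the sum over copies is the readable quantity.

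**Figure D2:**
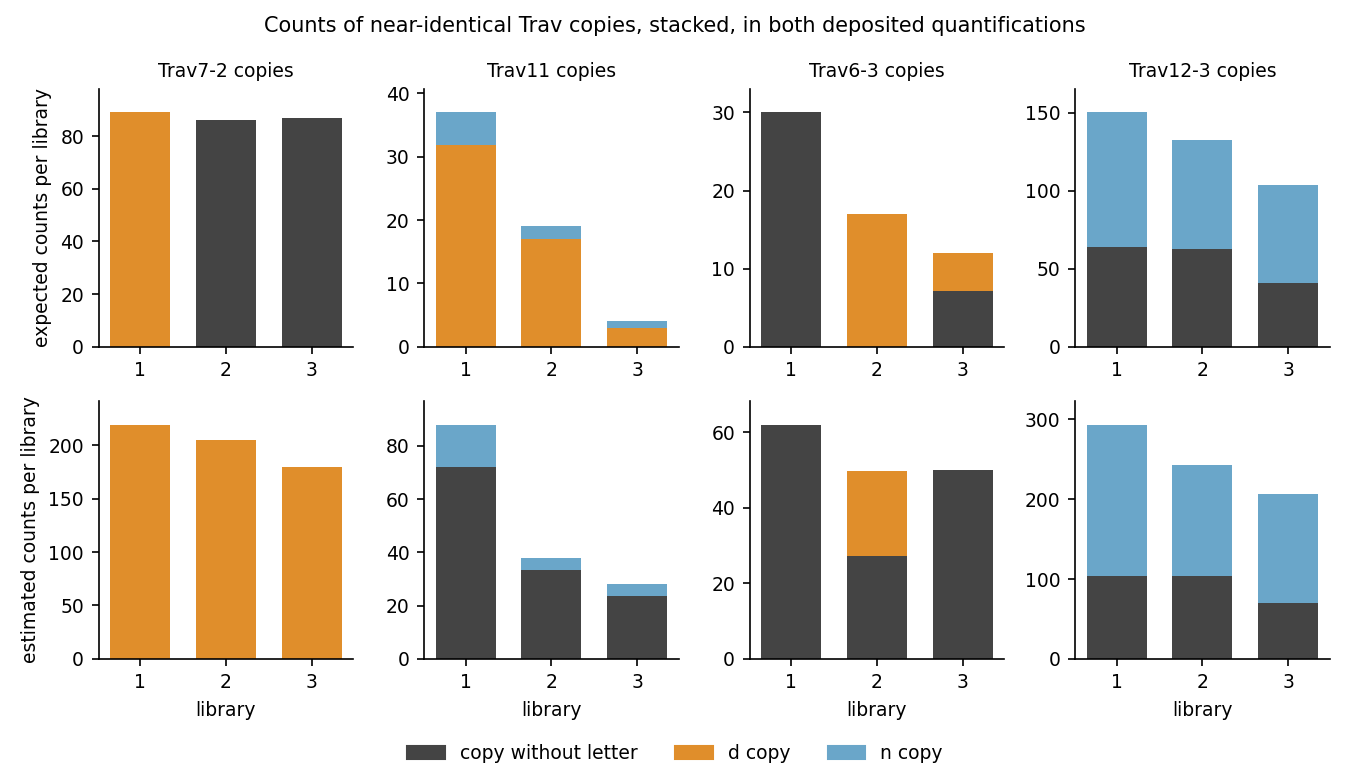
Counts of the plain, d and n copies of 4 Trav subgroups in libraries 1, 2 and 3, stacked, with expected counts in the top row and estimated counts of the second quantification in the bottom row. Trav7-2 counts sit on the d copy in library 1 and on the copy without a letter in libraries 2 and 3 (top), while the stack heights, 89, 86 and 87, are nearly equal.

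Other copies cannot be split at all. Among the Trav genes, 17 pairs have the same annotated transcripts, base for base, and in each pair the expected counts of both genes were exactly equal in every library. Of these pairs, 15 had counts, and together they held 24.4% of the Trav counts. Trav3d-3 and Trav3n-3, for example, each had 61.4, 41.9 and 44.7 expected counts. In the whole-number gene table, made for an older annotation, 13 of the 17 pairs have rows for both genes, and 11 of these 13 had 3 counts or fewer for each gene over the libraries.

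By copy type, genes with the letter d took 23.2%, 21.9% and 21.8% of the Trav counts (mean 22.3% ± 0.779), genes with n took 24.0%, 20.7% and 22.8% (22.5% ± 1.68), and genes without a letter took 52.8%, 57.5% and 55.3% (55.2% ± 2.31). The d and n shares overlapped. They are the assignment made by the quantifier, not a measurement of which copy was transcribed, and in the whole-number table d and n genes together held 22.6% instead of 44.8%.

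Of the Trav genes, 72 had 30 counts or more and were tested one by one, and 56 were not. Between the libraries, 24 of the 72 differed (33.3%), beside 54.5% of all tested genes. The tested Trav genes had a median of 88.5 counts over the libraries and all tested genes 602, so the test resolved smaller differences in other genes. The median ratio of the highest to the lowest library was 1.58 for the tested Trav genes and 1.37 for all tested genes. Per gene total, 19 of the 24 were highest in library 1, 3 in library 2 and 2 in library 3. Without library 1, 2 of 53 Trav genes differed, without library 2 15 of 62, and without library 3 24 of 63. The shares of all tested genes were then 17.2%, 49.3% and 46.5%. With library totals scaled within bins of gene length 13 of the 72 differed, beside 45.3% of all tested genes. With estimated counts 43 of 99 did, beside 47.8%. The 24 include Trav7-2 and Trav7d-2, and 3 pairs of identical genes that count the same reads.

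A ratio of 2 or more, or a library at 0, was found for 15 of the 24. Trav7d-2, Trav7-2 and Trav6-3 are the ones with a 0, described above. Trav16n had 69.8, 22.1 and 28.2 expected counts, a 3.42-fold range (adjusted p = 8.65e-08), with library 1 alone high. Its copy Trav16 had 24.4, 36.9 and 20.3 counts, with library 2 highest.

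Trav11d had a 10.2-fold range (adjusted p = 2.47e-05), Trav4-4-dv10 a 2.27-fold range (adjusted p = 7.71e-05) and Trav14n-3 a 2.02-fold range (adjusted p = 0.000123), each highest in library 1. Trav15d-1-dv6d-1 ran the other way, with 5.24, 27.5 and 9.39 expected counts (adjusted p = 0.000544), highest in library 2. Its copy Trav15n-1 had 13.8, 0.51 and 1.61 counts, and with all copies summed, at 34, 37 and 26 counts, the Trav15-1 subgroup did not pass the test (adjusted p = 0.667). Trav9-2 was also highest in library 2, with 37.1, 54.9 and 22.0 counts (adjusted p = 0.0106). Trav6-5 had 53.8, 34.8 and 24.8 counts (adjusted p = 0.00847) and Trav8n-2 had 19.8, 6.56 and 11.6 (adjusted p = 0.0474). With copies summed neither call was kept: the Trav6-5 subgroup had 55, 36 and 37.0 counts (adjusted p = 0.0805) and the Trav8-2 subgroup 32, 18 and 30 (adjusted p = 0.0889).

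The identical genes Trav6-6 and Trav6d-6 each had 38.8, 17.0 and 24.3 expected counts (adjusted p = 0.0111), and Trav5d-4 and Trav5n-4 each had 25.1, 9.48 and 11.8 (adjusted p = 0.0142). In both pairs library 1 was high and library 2 low. Each pair is 1 observation, not 2.

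With copies summed before the test, 18 of 41 subgroups differed (43.9%), beside 54.6% of all features in that test. Of the 18, 15 were highest in library 1, 2 in library 2 and 1 in library 3, and 6 had a ratio of 2 or more. Without library 1, 2 of 35 subgroups differed, beside 17.2% of all genes tested without it. Trav7-2, with its copies summed, was not among the 18.

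Trav4-4 showed the smallest p among the subgroups, at 199.7, 135.0 and 99.3 expected counts, a 1.91-fold range (adjusted p = 1.71e-07). Trav4-3 had 77.3, 38.0 and 35.7 counts, a 2.18-fold range (adjusted p = 4.09e-05), and Trav5-4 had 105.0, 58.0 and 64.0 (adjusted p = 0.000164). In all 3 of these subgroups library 1 stood above libraries 2 and 3. The other subgroups with a ratio of 2 or more were Trav11, Trav6-4, Trav9-2, Trav9-3 and Trav6-3, and library 3 was the lowest in each.

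Several other chains of the receptor complex were also highest in library 1. In the list of 13 receptor genes, 12 were detected and 9 of the 12 tested genes differed between the libraries. Of all tested genes 54.5% did. Trac had 15318, 11573 and 9531 counts, where all tested genes had a median of 602 over the libraries. The test thus resolved small differences in such genes. Trbc1 and Trbc2, the beta chain constant genes, stood at 2457, 2350 and 2036 TPM and at 4448, 3985 and 3500 TPM. Cd3g, a signalling subunit of the complex, stood at 1366, 1125 and 1020 TPM, and Cd3d, another, at 514.7, 429.4 and 400.4 TPM. All 4 were highest in library 1 in TPM. Cd3e and Cd247, 2 further signalling subunits, were highest in library 1 by expected counts, with 14990, 13163 and 11083 and with 4787, 4113 and 3793 counts, but not in TPM, where Cd3e stood at 1400.0, 1448 and 1347 and Cd247 at 418.4, 426.2 and 433.1. The regulatory T cell markers were mixed. Foxp3 and Il2ra were lowest in library 1 by expected counts and TPM. Ctla4 (2955, 2684 and 2287) and Izumo1r (11359, 10506 and 7891) were highest in library 1 by expected counts. Ikzf2 had 11075, 11861 and 9951 counts, highest in library 2. In TPM, Ctla4, Izumo1r and Ikzf2 were each highest in library 2. The part of these levels in the Trav differences was not tested.

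**Figure D3:**
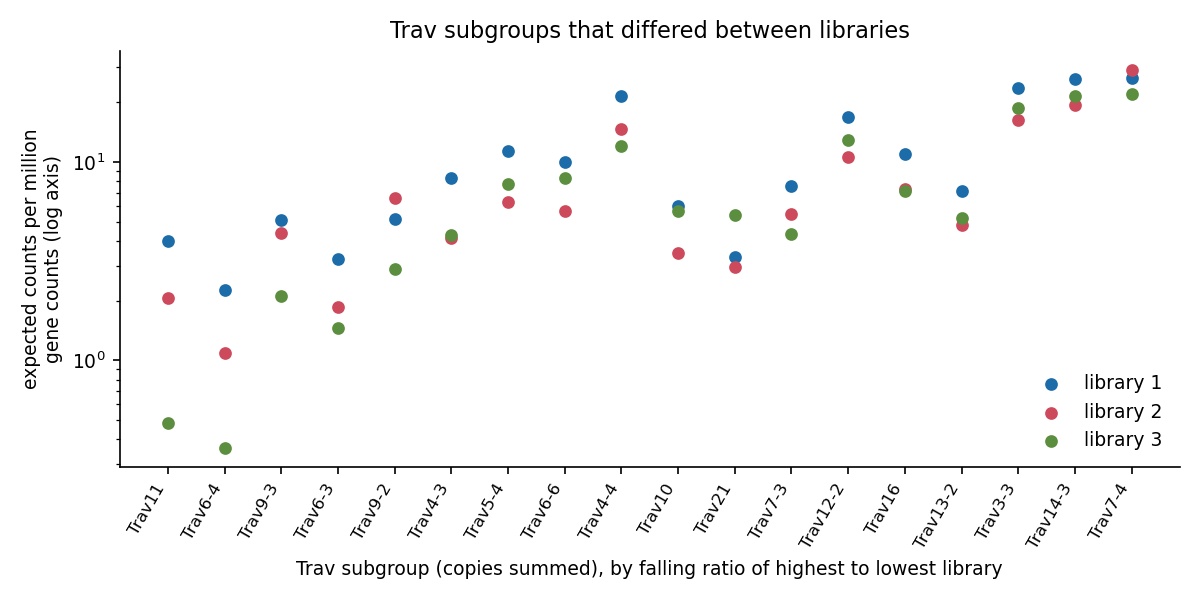
Expected counts relative to the gene total (CPM, log axis) of the 18 Trav subgroups that differed between the libraries, copies summed, ordered by falling ratio of the highest to the lowest library. Library 1 is the highest point in 15 of the 18, and Trav11 has the widest range, 8.86-fold.

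The make-up of the Trav counts, set apart from their total, was described with Cramér's V, which is 0 for equal proportions and 1 for fully separate ones. It was 0.0803 over the 23 families, where counting error alone gives about 0.0519. Over subgroups it was 0.115 beside 0.0790, and over single genes 0.209 beside 0.117. By Cramér's V the excess over counting error was widest for single genes, where shifts between near-identical copies such as Trav7-2 and Trav7d-2 also enter. Chi-square per degree of freedom was 3.17 for single genes, 2.12 for subgroups and 2.39 for families. With whole-number counts it was 2.95, 3.42 and 3.85, highest for families. For pairs of libraries at family level, Cramér's V was 0.0972 for libraries 1 and 2, 0.0994 for 1 and 3 and 0.0950 for 2 and 3. The counting-error values beside them were 0.0611, 0.0617 and 0.0669. With estimated counts these pairs had 0.0800, 0.0776 and 0.0602, beside 0.0419, 0.0431 and 0.0458, so that libraries 2 and 3 lay closest to counting error. With whole-number counts the pairs had 0.0919, 0.0799 and 0.0944, beside 0.0449, 0.0451 and 0.0490, and libraries 1 and 3 lay closest.

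Position along the locus went with the counts. Ordered by distance to Trac, the 43 nearest Trav genes, from 242.8 to 765.7 kb away, held 47.2%, 49.8% and 46.9% of the Trav counts (mean 47.9% ± 1.58). The middle 43 genes, from 776.7 to 1178 kb, held 29.5%, 28.7% and 32.6% (30.3% ± 2.09), and the farthest 42, from 1187 to 1792 kb, held 23.3%, 21.6% and 20.5% (21.8% ± 1.44). The order was the same in every library, and the ranges did not overlap.

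Per functional gene this is a mean of 36.9 expected counts in the nearest set, 22.5 in the middle set and 16.1 in the farthest set. By detection the sets were closer, with 34 of 43, 30 of 43 and 30 of 42 genes at 1 TPM or more in every library. The nearest set holds no d or n copy, whereas most of the rest are copies whose counts are shared out, and the part of this in the difference was not tested. The nearest set held 46.8% of the summed Trav TPM, and 70.3% of the Trav counts in the whole-number table.

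Within the nearest set the counts were not highest next to Trac. Trav23, the nearest of all, had 0, 1 and 2 counts, and low counts were also found for Trav18 and the pseudogenes Trav20 and Trav22, given above. Between these lie genes with more counts: Trav21-dv12 had 31, 27 and 45 counts and Trav19 had 27, 31 and 23. Trav17, the next gene beyond Trav18, had 33, 55 and 30. At the other end of the locus, Trav1, the farthest gene, had 13, 11 and 14 counts.

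**Figure D4:**
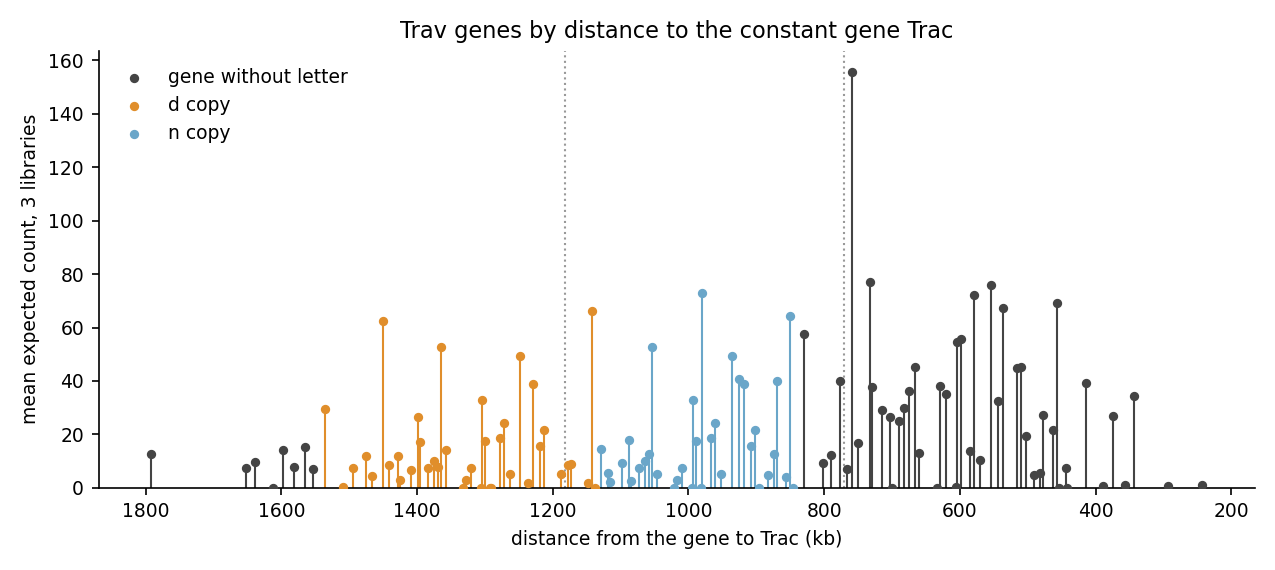
Mean expected count over 3 libraries of each of the 128 Trav genes against the distance from the gene to Trac, in kb, with Trac to the right; dotted lines divide the genes into the farthest 42, the middle 43 and the nearest 43. Trav7-4, at 155.8 counts, is the tallest line and lies near the far edge of the nearest set, and the d and n copies fill the middle of the locus.

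The Traj segments are 29 to 72 bases long, and all 60 were listed at 0 expected counts and 0 TPM in every library, with an effective length of 0. This is a property of the quantification and not a measurement of their RNA. The second quantification gives them estimated counts, and these are used for Traj from here on. They summed to 823, 1153 and 963 in libraries 1, 2 and 3, which is 0.00635%, 0.00930% and 0.00854% of the total estimated counts. Library 1 was the lowest, unlike for Trav. Whether a Traj count comes from a joined alpha chain or from unspliced RNA of the unrearranged locus cannot be told apart in these tables.

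Of the 60 Traj segments, 56 had a count in every library. The 3 with none in any library were Traj55, Traj54 and Traj1, all annotated as pseudogenes. For Traj55 and Traj54, 0 of 2939 Traj counts allows a share of up to 0.102%. Traj1 is the shortest segment, at 29 bases. Whether the quantification could assign counts to so short a segment is not known, so no limit is given for it. J genes took 94.8%, 92.2% and 92.0% of the Traj counts and pseudogenes the rest.

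The sequences of the 8 highest segments are shown with that of Traj33, the J segment of the MAIT cell alpha chain, to set their motif beside their counts. They are whole segments from GENCODE M21 transcripts of build mm10, + strand. Capitals mark a match to TTTGGNNNNGG or TTCGGNNNNGG, the codons for phenylalanine, glycine, any residue and glycine that close the junction loop.
Traj17, chr14:54201775-54201837: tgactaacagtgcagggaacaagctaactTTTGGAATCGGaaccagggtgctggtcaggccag
Traj18, chr14:54200777-54200842: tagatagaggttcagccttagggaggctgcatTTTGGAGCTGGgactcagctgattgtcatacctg
Traj19, chr14:54200386-54200446: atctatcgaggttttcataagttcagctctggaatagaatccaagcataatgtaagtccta
Traj9, chr14:54209393-54209450: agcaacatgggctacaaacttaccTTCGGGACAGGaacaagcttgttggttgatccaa
Traj27, chr14:54192303-54192361: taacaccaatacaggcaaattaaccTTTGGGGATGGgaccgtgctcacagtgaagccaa
Traj20, chr14:54199441-54199498: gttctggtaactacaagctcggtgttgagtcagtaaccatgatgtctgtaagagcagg
Traj21, chr14:54198790-54198846: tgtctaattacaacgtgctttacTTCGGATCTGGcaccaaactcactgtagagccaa
Traj8, chr14:54209918-54209954: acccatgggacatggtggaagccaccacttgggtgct
Traj33, chr14:54185358-54185414: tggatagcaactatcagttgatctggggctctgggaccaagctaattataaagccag
On the coding strand, 42 of the 51 J genes (82.4%) and 1 of the 9 J pseudogenes held a match, or 71.7% of all 60 Traj segments, and on the reverse strand none did. The search used both motifs on both strands of the whole segment. Of the 9 segments shown, Traj19, Traj20, Traj8 and Traj33 hold no match, so segments with and without these letters are both among the highest.

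Traj17 led with 76, 76 and 71 estimated counts (7.73% ± 1.36 of the Traj counts, SD, n = 3 libraries). Traj18, the J segment of the NKT cell alpha chain, had 62, 70 and 68 (6.89% ± 0.746), and Traj19 had 52, 55 and 59 (5.74% ± 0.844). Traj9 had 48, 73 and 44 counts (5.58% ± 0.908). Traj17 and Traj18 overlapped in share across the libraries, as did Traj19 and Traj9.

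Traj27 had 42, 71 and 32 estimated counts (4.86% ± 1.43), with library 2 alone high. Traj20 had 32, 51 and 40 (4.16% ± 0.268), and Traj21 had 21, 37 and 49 (3.62% ± 1.32). Traj8, an annotated pseudogene of 37 bases, had 23, 35 and 38 (3.26% ± 0.607). These 8 segments together held 43.3%, 40.6% and 41.6% of the Traj counts.

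The pseudogenes with 10 or more counts over the libraries were, beside Traj8, Traj14 with 8, 23 and 10 estimated counts, Traj36 with 5, 9 and 11, Traj51 with 4, 10 and 9, and Traj61 with 3, 10 and 7. Of these 5 pseudogenes, Traj8 alone was among the 8 highest segments by count. The order depends on segment length. By mean TPM of the second quantification, Traj18 (332.7) stood above Traj17 (301.5) and Traj8 (278.6). The pseudogene Traj14 (155.7) then stood above Traj20 (141.7) and Traj21 (130.6).

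Counts were higher in the part of the J array nearer Trac. The 30 segments nearer Trac, Traj31 to Traj1, held 75.0%, 76.6% and 75.9% of the Traj counts in libraries 1, 2 and 3 (mean 75.8% ± 0.810). The Wilson bounds were 71.9% and 77.8% in library 1, 74.1% and 78.9% in library 2, and 73.1% and 78.5% in library 3. In blocks of 15 segments from the far end, the shares were 8.63% ± 0.229 for Traj61 to Traj47, 15.5% ± 0.582 for Traj46 to Traj32, 47.1% ± 0.401 for Traj31 to Traj17 and 28.7% ± 1.08 for Traj16 to Traj1. The peak was thus inside the array and not at its end, and the libraries differed by less than 3 percentage points in each block.

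**Figure D5:**
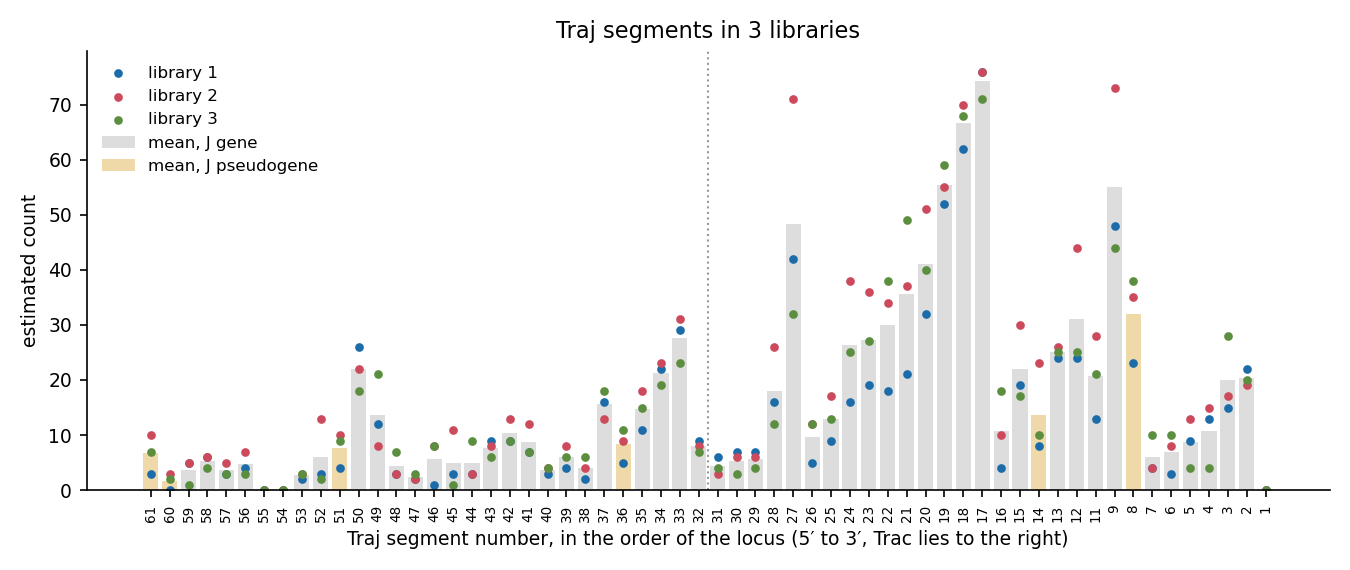
Estimated count of each Traj segment in libraries 1, 2 and 3 (points) over their mean (bars, pale yellow for pseudogenes), in the order of the locus with Trac to the right; the dotted line divides the array into 30 and 30 segments. Counts are higher segment by segment between Traj25 and a peak at Traj17 (76, 76 and 71), with separate peaks at Traj27 and Traj9.

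With 30 counts or more, 29 Traj segments could be tested, and 4 of them differed between the libraries, beside 47.8% of all genes tested on estimated counts. Even the highest segment, Traj17, had a mean of only 74.3 counts per library, so small differences between the libraries could not be resolved for Traj. Traj27 differed with library 2 high (adjusted p = 0.00739) and Traj21 with library 3 high (adjusted p = 0.00831, a 2.34-fold range). Traj16 had 4, 10 and 18 counts (adjusted p = 0.0175, 4.51-fold) and Traj49 had 12, 8 and 21 (adjusted p = 0.0419, 2.94-fold), both highest in library 3. Segments under 30 counts over the libraries were not tested. Over all Traj segments Cramér's V was 0.167, beside 0.138 from counting error alone.

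The segments of the invariant alpha chains were present among many others. The Trav11 subgroup, whose V genes pair with Traj18 in NKT cells, had 37, 19 and 4 expected counts, or 1.14%, 0.716% and 0.177% of the Trav counts, an 8.86-fold range per scaled total (adjusted p = 5.79e-06). The Wilson bounds of these shares, 0.828% and 1.57% in library 1 and 0.0687% and 0.453% in library 3, did not overlap. The second quantification gave 88, 38 and 28 counts, in the same order but with a narrower range. Traj18 itself did not follow this order, with 62, 70 and 68 counts.

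Among markers of these cells, Zbtb16, the transcription factor that defines NKT and MAIT cells, was at 0, 0.06 and 0.14 TPM, and Klrb1b at 0.06, 0 and 0 TPM. Klrb1c, which encodes the receptor NK1.1, stood at 3.14, 2.79 and 3.86 TPM, and Slamf1, which many T cells also express, at 57.5, 76.9 and 69.0 TPM. These levels rest on few counts for Zbtb16 (0, 2 and 3) and Klrb1c (51, 36 and 36). The part of NKT cells in the Trav11 counts was not tested.

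Trav1 and Traj33, the segments of MAIT cells, had 13, 11 and 14 expected counts (0.478% ± 0.122 of the Trav counts) and 29, 31 and 23 estimated counts (2.87% ± 0.588 of the Traj counts). Neither passed the test of a difference between the libraries (adjusted p = 0.730 and 0.755). Both segments also occur in other alpha chains, and the tables do not pair V with J.

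The genes of V(D)J recombination that are specific to developing lymphocytes were at or near 0. Rag1, which encodes a subunit of the recombinase, was at 0.06, 0 and 0 TPM, and Rag2, the other, had 0 counts in all 3 libraries, where a count of 0 allows a share of up to 3.23e-05%, 3.26e-05% and 3.62e-05% of the gene total. Dntt, which adds bases at the junction, was at 0.44, 0.52 and 0.51 TPM. These genes are also in a list of 5 immature thymocyte genes, with Ptcra and Cd1d1, which are not recombination genes. Ptcra, the surrogate alpha chain of immature thymocytes, was at 0, 0.39 and 0 TPM, whereas Cd1d1 stood at 123.2, 140.3 and 129.3 TPM. The general DNA repair members of the recombination list were expressed, so that 12 of its 15 genes were detected. Of the 12 tested ones 9 differed between the libraries, beside 54.5% of all tested genes. Among the repair members, Xrcc6, which encodes a DNA end-binding protein, stood at 44.1, 57.7 and 57.9 TPM. Lig4, the ligase of end joining, stood at 2.30, 3.95 and 4.75 TPM.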

How the data were processed

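Each library had 4 deposited tables. The authors' gene table holds expected counts, TPM and a posterior standard deviation of the count, a score of its uncertainty, and another table lists estimated counts and TPM by transcript, both for mm10 with GENCODE M21, per the deposited readmes and the file headers. The whole-number counts per gene, deposited for GENCODE M4, were used only as an alternative. The sources used here name no aligner, quantifier, version or use of strand. The M21 annotation overlaps Trav13d-3, Trav13n-3 and Trav22 with genes on the other strand, so their counts are uncertain.

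Members and lists were chosen with earlier results of these data known. tRNA-like, spike-in and phiX entries were left out of totals. Expected counts were rounded for the test, a chi-square test of homogeneity of each gene with 30 or more counts against library totals scaled by TMM (edgeR 4.0.16, R 4.3.3), with Benjamini-Hochberg adjustment over all genes tested and a threshold of 0.05. All adjusted p-values in the text come from this test, run on estimated counts for Traj, which have no expected counts; the design had foreseen expected counts. It assumes counting noise, and SDs and p-values cover no more than the technical spread of 3 libraries of the same biological replicate, as labelled. Estimated counts of the second table were summed per gene. Ratios are per TMM-scaled total, and a Wilson interval has a confidence level of 95%. Reads carry no molecular identifier, so intervals and limits cover counting error only.

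Genes named are the Trav families by share (the 8 highest and the 3 lowest in full), the 12 highest Trav and 8 highest Traj genes, members that differed with a ratio of 2 or more, the segments of NKT and MAIT cells, and pseudogenes with 10 or more counts. Trav21-dv12, Trav19, Trav17 and Trav23 were added for their position after their values were seen, as were the copies of genes named. Sequences come from the GENCODE M21 transcripts. The script was tested on simulated data (Python 3.11.15).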

Additional observations from a re-analysis of the deposited data

How the results depend on the processing

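Detected members numbered 158 with TPM of the second quantification, which counts Traj, against 94. The Trav share of gene counts, 0.0304%, was 0.0473% with estimated counts and 0.0472% with whole-number counts. The share of the 5 highest families, 63.1%, was 61.8% with estimated counts, 53.9% with whole-number counts and 59.2% with TPM. The share of d and n copies, 44.8%, was 47.7% and 22.6% with estimated and whole-number counts, and that of the 43 Trav genes nearest Trac, 47.9%, was 70.3% with whole-number counts; this table has rows for 99 of the 128 Trav genes, and 24 of these are at 0. The 24 Trav genes that differed became 43 with estimated counts (47.8% of all genes then). They became 13 with scaling within 10 bins of gene length (45.3% of all genes then), where 7 of 41 subgroups differed. With 1 library left out they numbered 2 without library 1, 15 without library 2 and 24 without library 3. The shares of all genes were then 17.2%, 49.3% and 46.5%. Apart from the construction of each alternative, the cause of these changes was not tested. Traj genes differing numbered 0 by construction with expected counts, which are all 0 so that no Traj gene could be tested, and 4 with estimated counts. The other settings run (size factors of DESeq2 1.42.0, library totals, count filters of 10 and none, TPM thresholds of 0.5 and 5, posterior mean TPM, functional genes only) left each of these results within its spread or within 1.5 times its count.

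Traj position could not be given from expected or whole-number counts, which hold no Traj counts, and summing copies has no meaning for Traj. No paired analysis was possible because the libraries form 1 group. Depth limits the low members: 56 Trav genes had under 30 counts over the libraries.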

Other observations

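Estimated counts of the second quantification exceeded expected counts by 2.13, 2.11 and 2.16 times for the Trav genes in libraries 1, 2 and 3, and by 1.39, 1.35 and 1.36 times for all genes. Traj estimated counts were 11.9%, 20.6% and 19.6% of the Trav estimated counts. In the whole-number table, Trav sums were 5170, 4245 and 3662 counts. Trav7n-6, listed at 0 expected counts in every library, had 60.9, 0.0998 and 28.6 estimated counts.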
